A study of Mus musculus with 6 samples.

Results

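The genes described here are Myc and 35 genes of ribosome biogenesis, 36 in all of the 54146 genes in a table of RNAseq expression values. They were chosen by gene symbol from a list of nucleolar and ribosome assembly factors plus Myc, and each symbol matched 1 row. No rule on their measured values was used, but earlier results of these data were known when the list was made. All 36 passed the filter on low values (1 TPM or more in 3 or more of the libraries), as did 12301 genes in the whole table, and were tested. TPM, the unit of the table, is a gene's reads per length of its transcripts as a share of its own library, so it can be compared between genes but keeps no read depth.

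The cells were D2A1, a mouse mammary tumor cell line, grown as spheroids in Matrigel in DMEM with 10% FBS. The question set by the design was which genes differ between recombinant SLURP1 (rSLURP1), a secreted protein of the Ly6/uPAR family, and the control protein rGST. There were 3 libraries of each treatment, both proteins were given at 50 nM per the labels, and cells were harvested on day 5 per the paper's methods. All libraries were of 1 unmodified cell line, and the labels do not say whether the 3 libraries of a treatment came from separate cultures, so the p-values measure only the spread between these libraries.

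Ribosome biogenesis starts in the nucleolus, where RNA polymerase I makes a long precursor of the ribosomal RNAs. Small nucleolar ribonucleoproteins (snoRNPs) modify this precursor, and the small subunit processome and the large subunit assembly factors fold and cut it while ribosomal proteins join. MYC is a transcription factor that binds DNA as a pair with MAX, usually at the E-box CACGTG, and genes of every step of ribosome assembly are among its best-known targets. Many tumor cells keep MYC and the nucleolus highly active to sustain growth.

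With rSLURP1 11906 to 11981 genes were at 1 TPM or more in a library, and with rGST 12390 to 12449 were. The 10 most abundant genes took up 11.7% to 12.6% of an rGST library's TPM and 13.6% to 15.4% of that of an rSLURP1 library. All tested genes together had a median log2 fold change of -0.33, so most genes lay below 0 on the deposited scale. Differences are therefore given as deposited and, for the calls and the gene lists, also after median-ratio scaling, in which each library is divided by the median ratio of its genes to their mean over libraries, and differences that keep their direction under both are named as such. Of the markers that check the labelled cell type, Epcam, Krt5 and Krt14 were at 0 and Cdh1 was at or below 0.07 TPM in all libraries, whereas Krt18 was at 191 to 199 TPM. Vim was at 1184 to 1340 TPM with rGST and 640 to 699 with rSLURP1, Fn1 at 5399 to 5439 and 2970 to 3156, Zeb1 at 9.87 to 11.5 and 7.03 to 7.20, and Krt8 at 1.40 to 1.66 and 0.51 to 0.81. S100a4 was at 1356 to 1543 TPM and Cdh2 at or below 0.05 in all libraries. Of the endothelial markers, Kdr was at 0, Cdh5 at or below 0.04 and Pecam1 at or below 0.31 TPM. Of the adipocyte markers, Adipoq was at or below 0.15 TPM and Plin1 at 0.17 to 1.64 TPM with rGST and 1.15 to 1.74 with rSLURP1. Among leukocyte markers, Cd3e was at 0, Ptprc and Lyz2 were at or below 0.27 TPM, and Cd68 lay at 3.57 to 4.07 TPM with rGST and 7.75 to 10.6 with rSLURP1; the part of these marker differences in the results was not tested. In bulk RNA, fewer cells and less RNA per cell cannot be told apart.

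Most of the ribosome biogenesis genes were lower with rSLURP1 as deposited, but Npm1, Nhp2 and Rrp9 were higher, and Myc itself was not lower. In limma with Benjamini-Hochberg adjustment over all tested genes, 3 of the 36 genes were higher, 21 were lower (threshold: adjusted p of 0.05) and 12 were not called. Of all tested genes, 8.66% were higher and 58.5% lower, so the shares of the 36 genes called in each direction were near those of all genes. The counts of the smaller lists below are to be read beside these shares. With no filter on low values 1 was higher and 17 lower, where Nhp2, Rrp9, Utp20, Pes1, Wdr12 and Nop2 were no longer called. The median log2 fold change of the 36 genes was -0.23, which is 0.09 above the median of all tested genes, and 24 of the 36 lay above that median. No member changed 2-fold, compared with 8.22% of all tested genes in either direction. The 3 rSLURP1 libraries lay above all rGST libraries in 4 members and below them in 21, against 9.75% and 61.7% of all tested genes. Together the 36 genes held 0.485% to 0.492% of the TPM of an rGST library and 0.455% to 0.473% of an rSLURP1 library. Without Npm1 and Ncl, the most abundant of them, the sums were 0.268% to 0.274% and 0.223% to 0.242%.

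After median-ratio scaling, 13 of the 36 genes were higher, 4 lower and 19 not called, with a median log2 fold change of 0.12, whereas 26.0% of all tested genes were higher and 25.2% lower. With the effects of transcript length and GC content removed by a loess fit, 15 were higher and 4 lower, against 27.0% and 21.9% of all tested genes. The members that were higher under all 3 settings were Npm1, Nhp2 and Rrp9, and Dkc1 was lower under all 3. Polr1a, Ubtf and Utp15 were lower as deposited and after median-ratio scaling but not called after the length and GC correction. Ncl and Nop2 were lower as deposited and higher after both corrections.

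**Figure D1:**
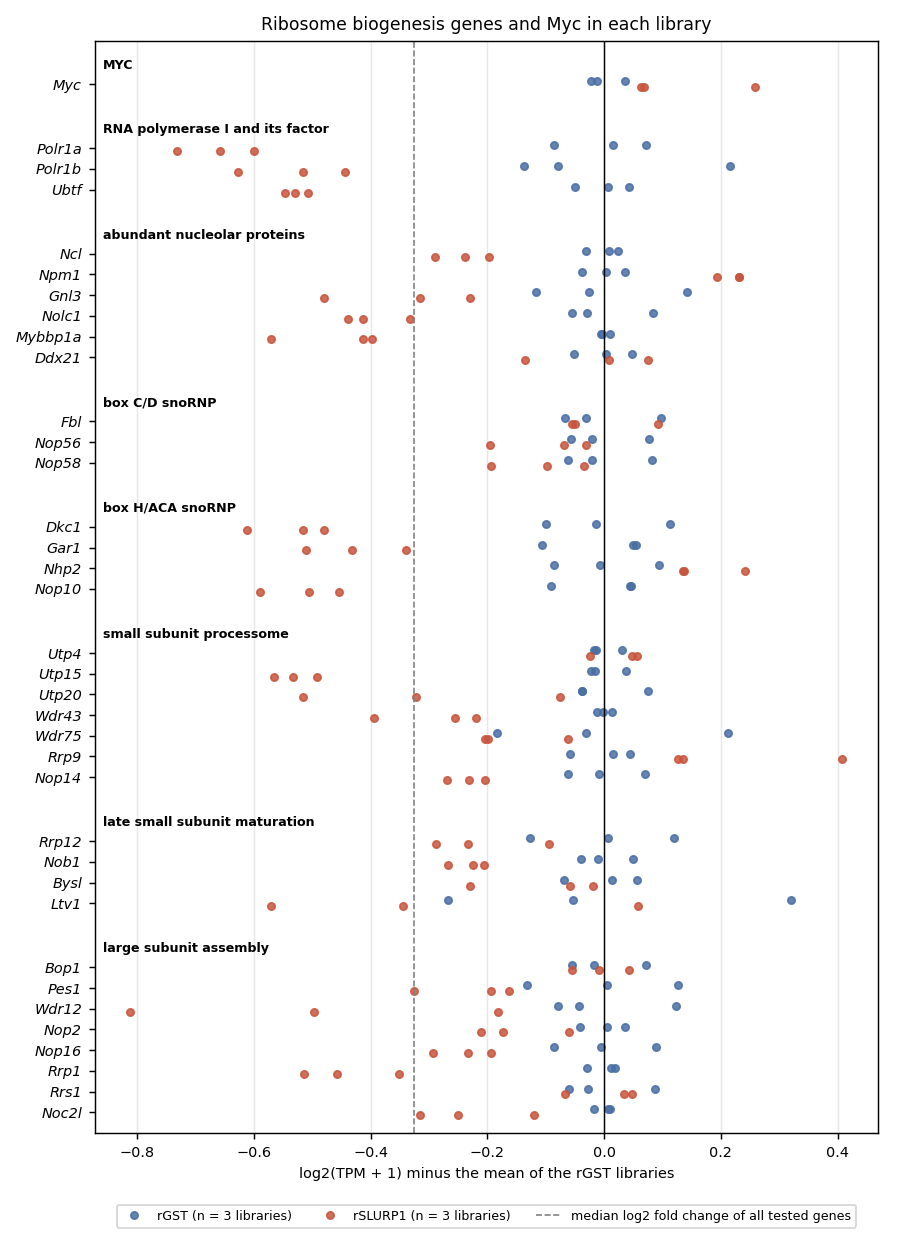
Each point is 1 library, plotted as its log2(TPM + 1) minus the mean of the 3 rGST libraries, for the 36 genes grouped by role. The dashed line is the median log2 fold change of all tested genes, -0.33. The rSLURP1 points of Polr1a, Ubtf, Dkc1 and Utp15 lie to the left of the line and those of Npm1, Nhp2 and Rrp9 to the right of 0.

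Myc (ENSMUSG00000022346.15; GRCm38 chromosome 15, 61985391 to 61990374, plus strand) had 109, 114 and 110.0 TPM in the rGST libraries and 116, 133 and 116 TPM in the rSLURP1 libraries. All rSLURP1 libraries were above all rGST libraries, and rSLURP1 replicate 2 was the highest. The log2 fold change was 0.13 (95% interval -0.01 to 0.27), which did not pass the test as deposited (limma, adjusted p = 0.0871). After median-ratio scaling it was 0.48 (limma, adjusted p = 0.000148), and after the length and GC correction it was also 0.48 (limma, adjusted p = 0.000149). In the order of all tested genes Myc lay at percentile 86.8 by log2 fold change.

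The other genes of the MYC family and MAX network went lower or did not pass the test as deposited. Of 13 such genes 11 were tested, with 0 higher and 8 lower and a median log2 fold change of -0.53, against 8.66% and 58.5% of all tested genes. After median-ratio scaling 2 were higher and 5 lower with a median of -0.20, against 26.0% and 25.2%. After the length and GC correction 1 was higher and 3 lower, against 27.0% and 21.9%. The median was then -0.07, beside 0.03 for all tested genes. Max, the partner of MYC on DNA, had 48.9, 51.6 and 49.1 TPM with rGST and 40.1, 48.7 and 45.8 with rSLURP1, a log2 fold change of -0.15 (limma, adjusted p = 0.102), which was 0.19 after median-ratio scaling. Mxd1, which pairs with MAX and represses genes that MYC activates, had 25.7, 22.9 and 22.9 TPM with rGST and 8.19, 7.47 and 6.17 with rSLURP1. All rSLURP1 libraries of Mxd1 were far below all rGST libraries, and its log2 fold change was -1.59 (limma, adjusted p = 1.49e-05) and -1.26 after median-ratio scaling. Mxd3 and Mga, other MAX partners that repress, had log2 fold changes of -0.99 and -0.93, and of -0.74 and -0.60 after median-ratio scaling. Mxd4, with -0.56, was lower under both scalings, and so was Mlxip (MondoA), a glucose-sensing factor that pairs with Mlx, with -0.59. Neither Mxd4 nor Mlxip was called after the length and GC correction (-0.11 and -0.07), where Mxd1, Mxd3 and Mga were still lower. Fbxw7, the ubiquitin ligase subunit that marks MYC for destruction, had -0.53 and Zbtb17 (MIZ1), through which MYC represses, had -0.47, both lower as deposited but not called after median-ratio scaling. Mnt had -0.33 and was lower as deposited, but had 0.01 after median-ratio scaling, and Mxi1 had -0.23 (limma, adjusted p = 0.0661). Mlx lay at 26.5 to 28.1 TPM with rGST and 27.6 to 31.9 with rSLURP1, with a log2 fold change of 0.14 (limma, adjusted p = 0.103), and 0.49 after median-ratio scaling. Mycn was at 0 in all libraries, and Mycl, which was too low to be tested, lay at 0.15 to 0.24 TPM with rGST and 0.57 to 0.74 with rSLURP1, so Myc held nearly all of the family's RNA.

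**Figure D2:**
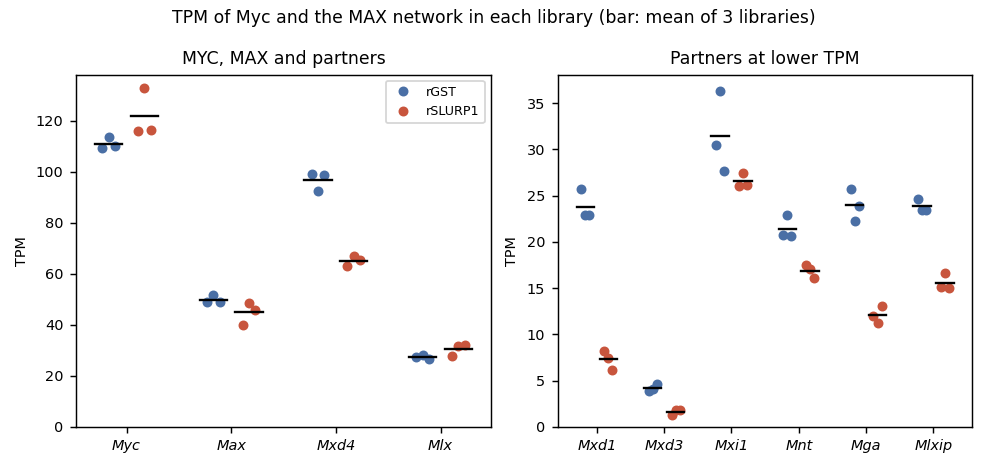
TPM of Myc and 9 genes of the MAX network in each library, with the treatments side by side and a bar at the mean of the 3 libraries; both vertical axes start at 0. The rSLURP1 points of Mxd1 lie at 6.17 to 8.19 TPM, below the rGST points at 22.9 to 25.7, while those of Myc lie at 116 to 133 TPM, above the rGST points at 109 to 114.

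The calls of MYC targets outside the ribosome changed with the scaling. Of 17 tested, 4 were higher and 8 lower as deposited, with a median log2 fold change of -0.15, against 8.66% and 58.5% of all tested genes. As deposited, 15 of the 17 lay above the median of all tested genes. After median-ratio scaling 12 were higher and 1 lower, with a median of 0.19, against 26.0% and 25.2% of all tested genes. Odc1, the first enzyme of polyamine synthesis, had 144, 155 and 166 TPM with rGST and 345, 368 and 319 with rSLURP1, without overlap, and a log2 fold change of 1.14 (limma, adjusted p = 9.52e-06; 1.50 after median-ratio scaling). Shmt2, the mitochondrial serine hydroxymethyltransferase, was also higher under both scalings with 0.75 and 1.10. The cytosolic Shmt1 was lower with -0.60 and -0.27. Cad, which starts pyrimidine synthesis, was lower as deposited with -0.49 and was not called after median-ratio scaling.

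The E-box was searched in the promoter windows of RefSeq (build GRCm38.p6), which run from 250 bases before to 50 bases after a gene's start. CACGTG reads the same on both strands. Windows were found for 30 of the 36 genes, and none was given for Myc, Npm1, Fbl, Bop1, Rrp12 and Rrs1. The motif stood in the windows of 7 of the 30 genes (23.3%), compared with 8.09% of all 27025 genes with a window and 12.1% of the 8367 tested genes with one. The 7 stretches, shown because they hold the letters to which MYC and MAX bind, are given 5′ to 3′ on the strand of the gene with the motif in capitals and up to 12 bases on each side, and positions count from 1 at the first base of the gene.
Nop2 (chr6:125131811-125131840, plus strand, motif from position -60): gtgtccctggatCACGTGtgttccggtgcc
Utp4 (chr8:106893643-106893672, plus strand, motif from position 16): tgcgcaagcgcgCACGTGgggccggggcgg
Ltv1 (chr10:13193092-13193121, minus strand, motif from position 29): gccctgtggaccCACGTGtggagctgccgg
Utp20 (chr10:88826765-88826789, minus strand, motif from position 38): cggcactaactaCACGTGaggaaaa
Pes1 (chr11:3963965-3963994, plus strand, motif from position 3): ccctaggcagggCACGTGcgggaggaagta
Mybbp1a (chr11:72441355-72441376, plus strand, motif from position 41): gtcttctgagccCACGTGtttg
Wdr43 (chr17:71616220-71616249, plus strand, motif from position 18): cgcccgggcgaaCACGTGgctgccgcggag

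As deposited, the log2 fold changes of these 7 genes ran from -0.46 (Mybbp1a) to 0.03 (Utp4) with a median of -0.29. Those of the 23 genes without the motif ran from -0.66 to 0.22 with a median of -0.24, so the ranges overlapped. A match of 6 letters is a description of the sequence and not a measured binding site.

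The 3 RNA polymerase I genes all fell as deposited, where 58.5% of all tested genes were lower. Polr1a, the largest subunit of the enzyme, had 41.0, 42.7 and 38.1 TPM with rGST and 26.4, 24.0 and 25.3 TPM with rSLURP1. Every rSLURP1 library lay below every rGST library, and the log2 fold change of -0.66 (SE 0.063, limma adjusted p = 8.02e-05) was the lowest of the 36 genes as deposited. It was -0.32 after median-ratio scaling (limma, adjusted p = 0.00651) and -0.15 after the length and GC correction (limma, adjusted p = 0.0883). Ubtf encodes UBF, the factor that keeps ribosomal DNA open for the polymerase. Ubtf had 93.6, 89.9 and 95.9 TPM with rGST and 63.4, 65.2 and 64.2 with rSLURP1, again without overlap, with a log2 fold change of -0.53 (SE 0.042, limma adjusted p = 3.53e-05) and of -0.18 after median-ratio scaling (limma, adjusted p = 0.00724). Polr1b, the second-largest subunit, had 19.6, 18.8 and 24.3 TPM with rGST and 13.1, 15.02 and 14.3 with rSLURP1. Its log2 fold change was -0.53 (limma, adjusted p = 0.00304), and it was not called after median-ratio scaling (-0.19, limma adjusted p = 0.148). The ratio of Polr1b to Polr1a within a library was 0.441 to 0.638 with rGST and 0.497 to 0.625 with rSLURP1, so the treatments overlapped (difference of log2 ratios 0.12, two-sided exact permutation p = 0.6).

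In the rest of the RNA polymerase I machinery, 8 of 12 genes were lower and 1 higher as deposited, with a median log2 fold change of -0.27, against 58.5% and 8.66% of all tested genes. After median-ratio scaling 2 were lower and 3 higher, against 25.2% and 26.0%. Ttf1, which ends polymerase I transcription, and the subunit gene Znrd1 were lowest, with -0.75 and -0.72 and still -0.42 and -0.37 after median-ratio scaling. Polr1d, a subunit shared with RNA polymerase III, was higher under both scalings, with 0.26 and 0.61. Polr1c, the other shared subunit, was lower as deposited with -0.18 and higher after median-ratio scaling with 0.18.

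Among the abundant nucleolar proteins, the 2 most abundant moved in opposite directions as deposited. Npm1 encodes nucleophosmin, a nucleolar chaperone of ribosomal particles, and had 1531, 1566 and 1488 TPM with rGST and 1794, 1748 and 1793 TPM with rSLURP1. The rSLURP1 libraries were all above the rGST libraries, and the log2 fold change was 0.22 (SE 0.034, limma adjusted p = 0.000908) and 0.57 after median-ratio scaling, but -0.14 after quantile normalization. Ncl encodes nucleolin, which binds ribosomal RNA precursors. It had 637, 654 and 661 TPM with rGST and 551, 567 and 532 with rSLURP1, without overlap. Its log2 fold change was -0.24 (SE 0.037, limma adjusted p = 0.000809) as deposited and 0.11 after median-ratio scaling (limma, adjusted p = 0.0194), so its direction rests on the scaling. The ratio of Npm1 to Ncl within a library is unchanged when a whole library is divided by 1 factor. After the length and GC correction, which is not such a factor, the log2 fold changes were 0.47 for Npm1 and 0.18 for Ncl. As deposited the ratio was 2.25 to 2.41 with rGST and 3.08 to 3.37 with rSLURP1 (difference of log2 ratios 0.46, two-sided exact permutation p = 0.1, the smallest that 3 libraries against 3 allow). This ratio and the other within-library ratios, 5 in all with that of Polr1b to Polr1a, were chosen after the values were seen.

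Nolc1, a chaperone of snoRNPs, Mybbp1a, a nucleolar MYB-binding protein, and Gnl3 (nucleostemin), a nucleolar GTPase of proliferating cells, were lower as deposited, with log2 fold changes of -0.39, -0.46 and -0.34. Mybbp1a had 189, 191 and 189 TPM with rGST and 144, 142 and 128 with rSLURP1. None of these 3 genes was called after median-ratio scaling, with values of -0.05, -0.11 and 0.01. The helicase gene Ddx21 had 34.9, 37.4 and 36.3 TPM with rGST and 36.4, 38.2 and 32.8 with rSLURP1, and the treatments overlapped. Its log2 fold change was -0.02 (95% interval -0.17 to 0.14, limma adjusted p = 0.833) as deposited and 0.33 after median-ratio scaling (limma, adjusted p = 0.00304).

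SnoRNPs, which carry out the chemical modification of ribosomal RNA, come in 2 classes. As deposited, of the core genes of the box C/D class, Fbl, Nop56 and Nop58 were not called and Snu13 was lower. Of the 4 core genes of the box H/ACA class 3 were lower and 1 higher, against 58.5% and 8.66% of all tested genes. The box C/D class methylates ribose, and its core consists of the methyltransferase fibrillarin (Fbl) with Nop56, Nop58 and Snu13. Fbl had 138, 151 and 135 TPM with rGST and 137, 151 and 136 with rSLURP1. Its libraries overlapped fully, with a log2 fold change of -0.0041 (95% interval -0.14 to 0.14, limma adjusted p = 0.957). Nop56 lay at 263 to 289 TPM with rGST and 239 to 268 with rSLURP1, and Nop58 at 195 to 215 and 178 to 198, with log2 fold changes of -0.10 (95% interval -0.23 to 0.03) and -0.11 (95% interval -0.24 to 0.02). Fbl, Nop56 and Nop58 did not pass the test as deposited, and all 3 were higher after median-ratio scaling, with 0.35, 0.25 and 0.24. Snu13, counted below with the other small subunit factors, was lower without overlap as deposited (log2 fold change -0.27, limma adjusted p = 0.00081). It was called neither after median-ratio scaling (0.09) nor after the length and GC correction (0.03).

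The box H/ACA class turns uridine into pseudouridine, and its core proteins also bind telomerase RNA. Dkc1, which encodes the pseudouridine synthase dyskerin, had 66.8, 61.1 and 57.5 TPM with rGST and 42.8, 43.9 and 40.0 with rSLURP1. There was no overlap, and the log2 fold change was -0.54 (SE 0.067, limma adjusted p = 0.0003), -0.19 after median-ratio scaling (limma, adjusted p = 0.0418) and -0.19 after the length and GC correction (limma, adjusted p = 0.0384). Gar1 had 135, 121 and 135 TPM with rGST and 90.8, 103 and 96.1 with rSLURP1, a log2 fold change of -0.43 (limma, adjusted p = 0.000693). Nop10, the smallest of the core proteins, had 81.2, 89.4 and 89.5 TPM with rGST and 63.0, 57.2 and 60.7 with rSLURP1, a log2 fold change of -0.52 (limma, adjusted p = 0.000171). Both were lower as deposited, neither was called after median-ratio scaling (-0.08 and -0.17), and both were lower after the length and GC correction (-0.22 and -0.35).

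Nhp2, which encodes the fourth core protein of the same particle, went the other way. It had 96.1, 91.0 and 103 TPM with rGST and 114, 106 and 106 with rSLURP1. All rSLURP1 libraries were above all rGST libraries, with a log2 fold change of 0.17 (SE 0.057, limma adjusted p = 0.0308) as deposited and 0.52 after median-ratio scaling (limma, adjusted p = 0.000377). Without rGST replicate 1, rGST replicate 2 or rSLURP1 replicate 1 the adjusted p in limma was 0.0779, 0.101 and 0.0940, and the log2 fold change stayed at 0.13 or above. The ratio of Nhp2 to Dkc1 within a library was 1.44 to 1.80 with rGST and 2.42 to 2.67 with rSLURP1 (difference of log2 ratios 0.72, two-sided exact permutation p = 0.1). The ratio of Fbl to Dkc1, which sets the enzyme of one class against that of the other, was 2.07 to 2.48 with rGST and 3.19 to 3.43 with rSLURP1 (difference of log2 ratios 0.54, two-sided exact permutation p = 0.1). Of 10 factors that assemble snoRNPs, 9 were lower and 0 higher as deposited, with a median log2 fold change of -0.42, against 58.5% and 8.66% of all tested genes. After median-ratio scaling 3 were lower and 0 higher, against 25.2% and 26.0%. Znhit6, a box C/D assembly factor, and Rpap3, a subunit of the R2TP chaperone, were lowest, with -1.19 and -0.91 (-0.84 and -0.57 after median-ratio scaling). Ruvbl2 and Naf1 were lower as deposited, with -0.20 and -0.24, and not after median-ratio scaling.

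**Figure D3:**
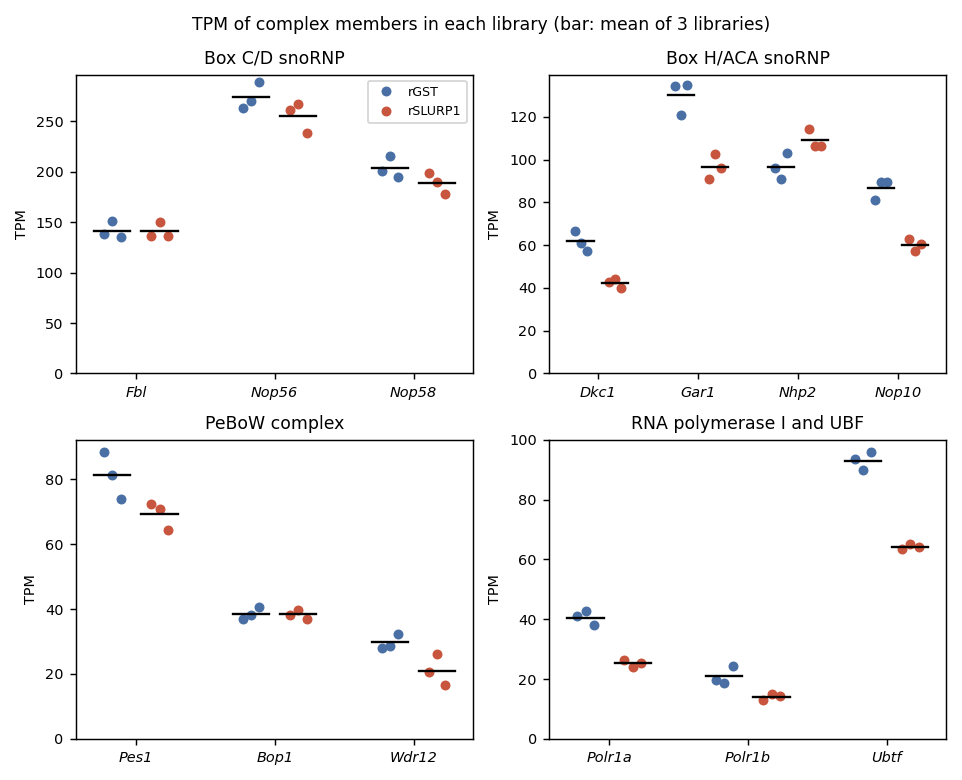
TPM in each library for the core proteins of both snoRNP classes except Snu13, the 3 proteins of the PeBoW complex, and RNA polymerase I with UBF. Bars are means of 3 libraries and the axes start at 0. Nhp2 is higher with rSLURP1 (106 to 114 TPM) than with rGST (91.0 to 103), while its partner Dkc1 is lower (40.0 to 43.9 against 57.5 to 66.8).

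The small subunit processome, which assembles on the 5′ part of the ribosomal RNA precursor, had 1 higher and 4 lower among 7 genes as deposited. These counts stand against 8.66% and 58.5% of all tested genes. After median-ratio scaling 2 were higher and 1 lower, against 26.0% and 25.2%. Rrp9, which encodes the protein that binds U3 snoRNA, had 34.2, 36.1 and 36.8 TPM with rGST and 39.1, 47.7 and 39.3 with rSLURP1. It was higher in every rSLURP1 library, most of all in replicate 2, with a log2 fold change of 0.22 (SE 0.083, limma adjusted p = 0.0452) and 0.57 after median-ratio scaling (limma, adjusted p = 0.000516). Without rSLURP1 replicate 2 the log2 fold change of Rrp9 was 0.13 (limma, adjusted p = 0.0812), and without rGST replicate 1, 2 or 3 the adjusted p in limma was 0.125, 0.0858 and 0.0660. Utp15, a part of the UTP-A subcomplex that binds the precursor first, had 15.8, 15.1 and 15.1 TPM with rGST and 10.3, 10.6 and 10.0 with rSLURP1. It was lower without overlap, with a log2 fold change of -0.53 (SE 0.066, limma adjusted p = 0.000292) and -0.20 after median-ratio scaling (limma, adjusted p = 0.0302).

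Utp4, another UTP-A gene, did not pass the test as deposited, with 70.2, 70.0 and 72.4 TPM with rGST and 73.2, 73.7 and 69.7 with rSLURP1 and a log2 fold change of 0.03 (95% interval -0.07 to 0.13). After median-ratio scaling Utp4 was higher, with 0.38 (limma, adjusted p = 0.000194). The UTP-A genes Wdr43 and Wdr75 had -0.29 and -0.16, of which Wdr43 was lower as deposited. Without rGST replicate 2 Wdr75 was lower too (-0.25, limma adjusted p = 0.0471). Nop14 was lower with -0.23, and Utp20, a large scaffold, was lower with -0.30 (limma, adjusted p = 0.0396), which was lost (limma, adjusted p from 0.0691 to 0.108) when any 1 library other than rSLURP1 replicate 1 was left out. None of Wdr43, Wdr75, Nop14 and Utp20 was called after median-ratio scaling, where all 4 values lay between 0.04 and 0.19.

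Of the factors of late small subunit maturation, 1 of 4 was lower and none higher as deposited, against 58.5% and 8.66% of all tested genes. None of the 4 was called after median-ratio scaling, against 25.2% lower and 26.0% higher of all tested genes. Nob1, the endonuclease that makes the final cut of 18S ribosomal RNA, had 80.6, 77.3 and 75.7 TPM with rGST and 67.4, 66.5 and 64.6 with rSLURP1, lower without overlap as deposited (log2 fold change -0.23, limma adjusted p = 0.00237) and at 0.12 after median-ratio scaling (limma, adjusted p = 0.0544). Rrp12, Bysl and Ltv1, which take part in export and the last assembly steps, did not pass the test as deposited or after median-ratio scaling. Their log2 fold changes as deposited were -0.21 (95% interval -0.43 to 0.02), -0.10 (-0.30 to 0.10) and -0.29 (-0.74 to 0.17). Ltv1 had the widest spread of the 36 genes, with 13.1, 15.3 and 20.2 TPM with rGST and 10.4, 16.6 and 12.3 with rSLURP1.

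Among 48 other small subunit factors, 3 were higher and 29 lower as deposited with a median log2 fold change of -0.26, against 8.66% and 58.5% of all tested genes. After median-ratio scaling 15 were higher and 4 lower with a median of 0.07, against 26.0% and 25.2%. Tsr2, the chaperone of ribosomal protein S26, and the processome gene Wdr36 were lowest, with -0.74 and -0.68, and were lower under both scalings. Pno1, a partner of Nob1, and the kinase gene Riok3 were highest, with 0.36 and 0.25, and were higher under both.

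For the large subunit, 6 of 8 genes were lower and none higher as deposited, against 58.5% and 8.66% of all tested genes. After median-ratio scaling 3 were higher and none lower, against 26.0% and 25.2%. Pes1, Bop1 and Wdr12 form the PeBoW complex, which is needed to process the large ribosomal RNAs. Wdr12 had 28.0, 28.7 and 32.4 TPM with rGST and 20.7, 26.0 and 16.5 with rSLURP1, lower without overlap but widely spread with rSLURP1, with a log2 fold change of -0.50 (SE 0.15, limma adjusted p = 0.0196), and without rGST replicate 3 it was no longer called (-0.44, limma adjusted p = 0.0623). Bop1 had 37.0, 38.1 and 40.6 TPM with rGST and 38.3, 39.7 and 37.0 with rSLURP1, with full overlap and a log2 fold change of -0.01 (95% interval -0.14 to 0.12). Pes1 lay between them, with 88.6, 81.4 and 73.9 TPM with rGST, 72.3, 70.8 and 64.5 with rSLURP1 and a log2 fold change of -0.23 (limma, adjusted p = 0.0290). The call of Pes1 was lost (limma, adjusted p from 0.0503 to 0.0921) without rGST replicate 1 or 2 or rSLURP1 replicate 2 or 3. The ratio of Bop1 to Wdr12 within a library was 1.25 to 1.32 with rGST and 1.53 to 2.25 with rSLURP1 (difference of log2 ratios 0.51, two-sided exact permutation p = 0.1). After median-ratio scaling Bop1 was higher, with 0.34 (limma, adjusted p = 0.00111), and Wdr12 and Pes1 were not called, with -0.16 and 0.12.

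Rrp1, a nucleolar factor of large subunit processing, had 163, 162 and 158 TPM with rGST and 113, 126 and 117 with rSLURP1, the lowest log2 fold change of the rest of the group at -0.44 (SE 0.049, limma adjusted p = 0.00017), with -0.09 after median-ratio scaling and -0.14 after the length and GC correction (limma, adjusted p = 0.0189). Rrs1, which helps to bring the 5S RNA into the particle, had 57.4, 58.7 and 63.6 TPM with rGST and 61.3, 61.9 and 57.1 with rSLURP1, a log2 fold change of 0.01 (95% interval -0.13 to 0.14) as deposited and 0.35 after median-ratio scaling (limma, adjusted p = 0.00122). Nop16 and Noc2l were lower with -0.24 and -0.23, and were not called after median-ratio scaling. Nop2, an RNA methyltransferase of the large subunit, had 75.5, 73.1 and 77.2 TPM with rGST and 64.9, 72.2 and 66.6 with rSLURP1, a log2 fold change of -0.15 (limma, adjusted p = 0.0378) that turned to 0.20 after median-ratio scaling (limma, adjusted p = 0.00597). When any 1 library other than rSLURP1 replicate 2 was left out, Nop2 was not called as deposited (limma, adjusted p from 0.0514 to 0.110).

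Of 52 other large subunit factors, 2 were higher and 35 lower as deposited with a median log2 fold change of -0.27, against 8.66% and 58.5% of all tested genes. After median-ratio scaling 15 were higher and 8 lower with a median of 0.06, against 26.0% and 25.2%. Exosc10, a nuclease of the nuclear exosome, and Nvl, an ATPase that releases factors from the particle, were lowest, with -0.95 and -0.93, and lower under both scalings (-0.60 and -0.58 after median-ratio scaling). Nsa2 and Wdr74, which take part in making the 60S particle, were highest with 0.35 and 0.20, and higher under both. Over all 122 other ribosome biogenesis genes, 6 were higher and 81 lower as deposited, against the same 8.66% and 58.5%. Their median was -0.27, beside -0.23 for the 36 genes. After median-ratio scaling 33 of the 122 were higher and 17 lower, against 26.0% and 25.2%. The median was then 0.07, beside 0.12 for the 36 genes. The cytosolic ribosomal proteins, the end products that these factors assemble, lay apart from them: 77 of 80 tested were higher and 1 lower as deposited, with a median of 0.50, and 79 were higher and 0 lower after median-ratio scaling, with a median of 0.85.

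**Figure D4:**
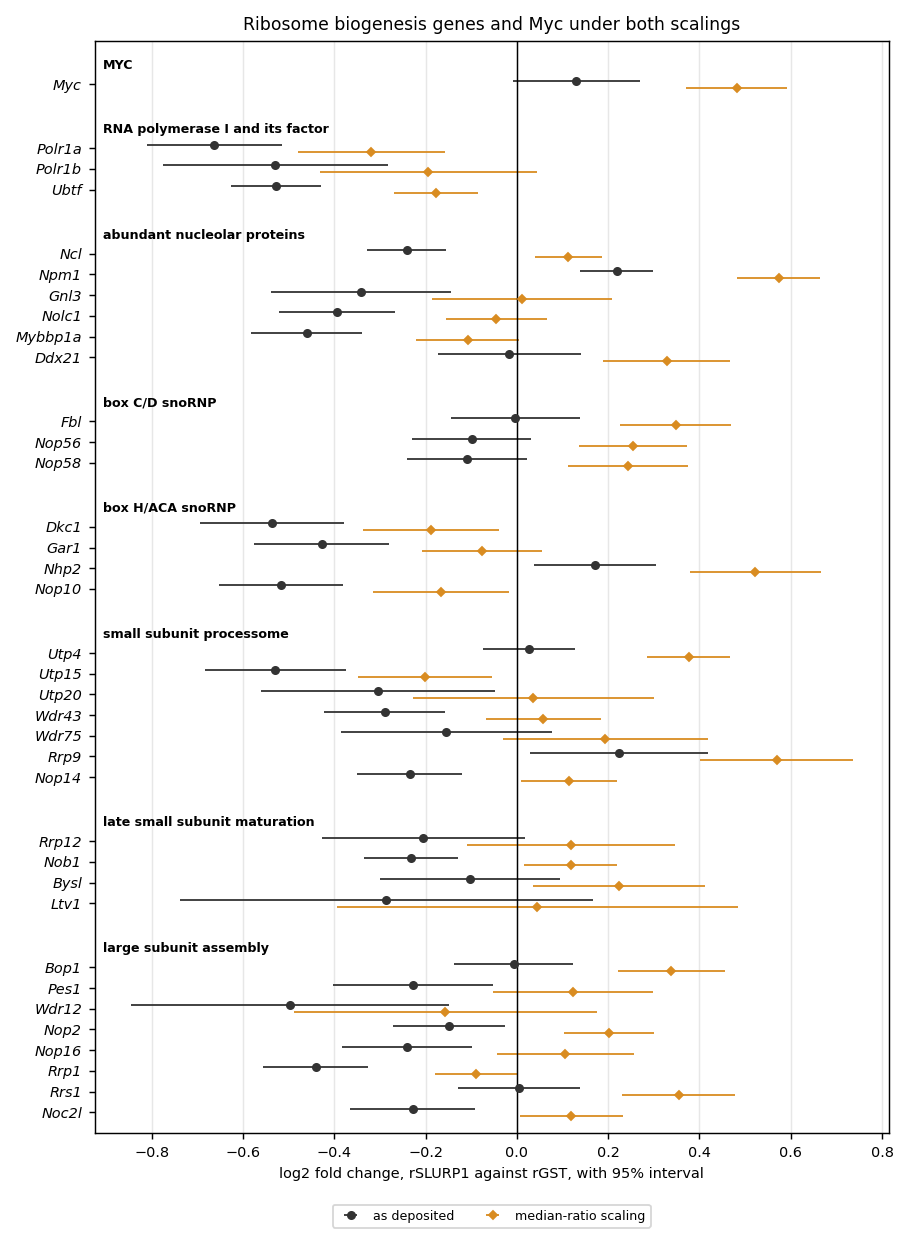
Log2 fold change of rSLURP1 against rGST for each of the 36 genes with its 95% interval from limma (n = 3 libraries per treatment), as deposited and after median-ratio scaling. The second set of points lies to the right of the first throughout. The intervals of Npm1, Nhp2 and Rrp9 are above 0 and those of Polr1a, Ubtf, Dkc1, Utp15 and Nop10 below 0 under both; the intervals are not adjusted for multiple tests, and Nop10 was not called after median-ratio scaling.

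**Figure D5:**
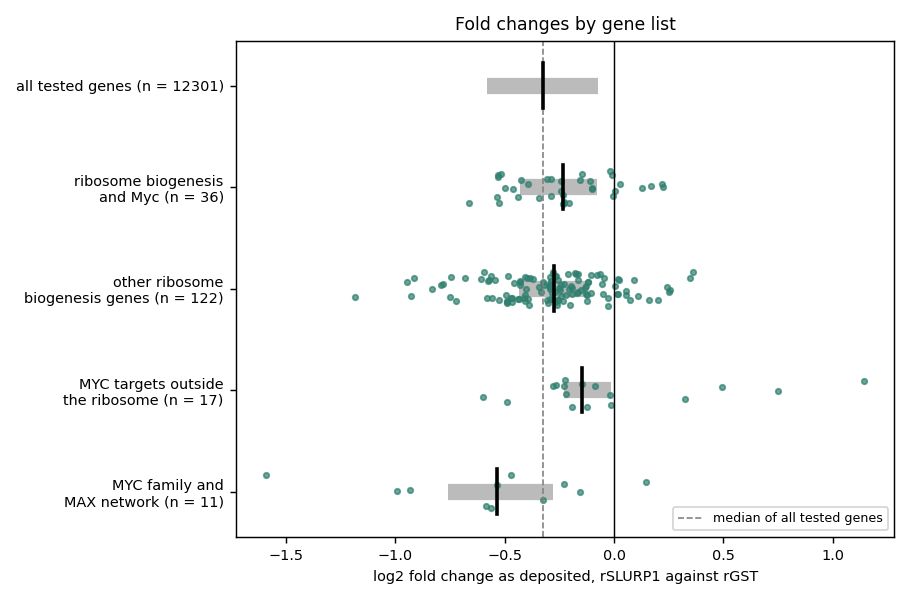
Log2 fold changes as deposited by gene list, with 1 point per gene, a black line at the median and a grey bar from the lower to the upper quartile; for all 12301 tested genes the median and quartiles are drawn without points. The medians lie at -0.23 for ribosome biogenesis and Myc, -0.27 for other ribosome biogenesis genes, -0.15 for MYC targets outside the ribosome and -0.53 for the MAX network, beside -0.33 for all tested genes. After median-ratio scaling the same medians were 0.12, 0.07, 0.19 and -0.20, beside -0.0012.

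Length moved with these values. Between log2 fold change and the length of a gene's longest annotated transcript, Spearman's rho was -0.34 over the 36 genes and -0.25 over 12293 tested genes. Genes with a longer longest transcript thus had lower values in both. These correlations are across genes, which share the same 6 libraries and are not independent replicates. By longest transcript, the shorter genes include Nhp2 (1042 bases) and Npm1 (1633 bases), and the longer ones Polr1a (9216 bases) and Ncl (8202 bases). By the same measure Nop10 (1109 bases) and Gar1 (1271 bases) were short and lower, and Nop58 (9507 bases) was long and not called as deposited. The longest annotated transcript need not be the one that these cells express, which was not tested and also limits the length and GC correction. The part of length in the single results was not tested beyond the length and GC correction given above.

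Exons of 8 of the 36 genes overlap those of a gene on the other strand with at least 10% of their TPM. Whether strand was used in counting is not given in the sources used here. Reads from the overlapping stretches, whose size is not given here, may therefore not have been told apart from those of the partner. Of the 8 genes, Dkc1 overlaps Mpp1, with a log2 fold change of -0.24 in the partner, Nhp2 overlaps Rmnd5b, with -0.26, Rrp9 overlaps Parp3, with -0.14, and Wdr12 overlaps Carf, with -0.52. All tested genes together had a median of -0.33, and the part of shared reads in the values of these genes was not tested. Nop56 overlaps Idh3b (-0.31), Gnl3 overlaps Pbrm1 (-0.39), Bysl overlaps Ccnd3 (-0.22) and Bop1 overlaps Mroh1 (0.02). Npm1 has many processed pseudogenes, and whether its reads were split with them was not tested.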

How the data were processed

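RNAseq of D2A1 spheroids was grouped by the sample labels into 3 rGST and 3 rSLURP1 libraries. The authors ran Cutadapt, STAR (2.5.2b, mm10 genome) and RSEM on the reads and deposited TPM for each library, without pooling. The kit is TruSeq mRNA in the labels and Smart-seq2 in the paper's methods. TPM keeps no depth, so counting error is unknown.

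Genes at 1 TPM or more in 3 or more libraries were tested on log2(TPM + 1) with limma (3.58.1, R 4.3.3; lmFit, eBayes with trend, two-sided, Benjamini-Hochberg adjustment over 12301 genes, threshold 0.05, and 2-fold as a stricter call). Fold changes on this scale understate low genes. Median-ratio scaling divided each library by its median ratio to the gene geometric means. Length and GC content were those of a gene's longest GENCODE M21 transcript and were corrected by loess (span 0.3). To that annotation 54079 of 54146 identifiers matched without version. The fit was tested on simulated data. Other alternatives were a pseudocount of 0.1, other filters, quantile normalization, no trend, a replicate block, and each library left out in turn.

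The 36 genes and the other lists were chosen with earlier results of these data known. Named were the 36 genes, all genes of the MAX network and, of each other pathway list, the 2 highest and 2 lowest genes past the threshold. Snu13 was named as well, as a core protein of the box C/D class. The list of ribosomal proteins is described by its counts and medians alone.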

Additional observations from a re-analysis of the deposited data

How the results depend on the processing

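As deposited 3 members were higher and 21 lower, with a median log2 fold change of -0.23. Over the libraries left out in turn, 1 to 3 were higher, 18 to 20 lower, the median was -0.25 to -0.21, and 7561 to 7905 genes were called in the whole table, against 8265 with all libraries. The higher count was 1 with no filter and 1 without the mean-variance trend, where Nhp2 and Rrp9 lost their call and Npm1 was called. With a fold change of at least 2 as well, 0 members were higher, 0 lower, and 1011 genes were called in the whole table. Higher and lower counts were 13 and 4 with median-ratio scaling (median 0.12), 10 and 9 with quantile normalization (median 0.068), and 15 and 4 after correcting for length and GC, whether or not the replicate block was added (median 0.14). By its construction median-ratio scaling moves the median of all genes, here from -0.33 to -0.0012. The cause of the changed counts was not tested.

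Same-numbered libraries did not deviate together (r across genes of -0.056, -0.034 and -0.061, against 0.0075 to 0.048 for other pairs), so no pairing by number was seen. With 3 libraries per treatment a weak pairing could be missed. With the replicate block 3 members were higher and 19 lower (Utp20 and Nop2 lost their call) and 7962 genes were called in the whole table.

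Log2 fold changes turned sign as follows, with Snu13 left out. With median-ratio scaling they were Ncl 0.11, Gnl3 0.010, Ddx21 0.33, Fbl 0.35, Nop56 0.25, Nop58 0.24, Utp20 0.036, Wdr43 0.058, Wdr75 0.19, Nop14 0.11, Rrp12 0.12, Nob1 0.12, Bysl 0.22, Ltv1 0.045, Bop1 0.34, Pes1 0.12, Nop2 0.20, Nop16 0.11, Noc2l 0.12, Polr1c 0.18, Ruvbl2 0.15, Naf1 0.095, Max 0.19, Mxi1 0.11 and Mnt 0.011. With the length and GC correction, and equally with the replicate block added to it, they were Ncl 0.18, Nolc1 0.022, Mybbp1a 0.0042, Ddx21 0.40, Fbl 0.35, Nop56 0.31, Nop58 0.31, Utp20 0.16, Wdr43 0.082, Wdr75 0.21, Nop14 0.12, Rrp12 0.26, Nob1 0.099, Bysl 0.34, Ltv1 0.031, Bop1 0.33, Pes1 0.14, Nop2 0.21, Nop16 0.049, Noc2l 0.15, Polr1c 0.046, Ruvbl2 0.12, Naf1 0.13, Max 0.15, Mxi1 0.19, Mnt 0.16 and Cad 0.043. With quantile normalization they were Npm1 -0.14, Ddx21 0.33, Fbl 0.22, Nop56 0.075, Nop58 0.11, Utp20 0.084, Wdr43 0.036, Wdr75 0.15, Nop14 0.054, Rrp12 0.20, Nob1 0.054, Bysl 0.30, Ltv1 0.10, Bop1 0.34, Pes1 0.060, Nop2 0.14, Nop16 0.11, Noc2l 0.087, Polr1c 0.044, Ruvbl2 0.098, Naf1 0.16, Max 0.17, Mxi1 0.14 and Mnt 0.070. With 1 library left out, values that began near 0 turned sign: Ddx21 (-0.063 to 0.042), Fbl (-0.052 to 0.045), Bop1 (-0.035 to 0.029), Rrs1 (-0.024 to 0.049).

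Over the members and these alternatives, 380 single-gene values had the direction and call they had as deposited, 59 kept their direction and lost the call, 13 kept it and gained one, and 88 turned sign. A difference shared by all genes cannot be seen in TPM, and depth is unknown, so the precision rests on 3 libraries per treatment.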
